A study of Drosophila melanogaster with 4 samples.

Results

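The genes described here are the RGK GTPases and the voltage-gated calcium channel subunits of Drosophila melanogaster, in nuclear RNA of photoreceptors. The set holds 8 genes, found by symbol through their FlyBase gene identifiers: Rgk1, Rgk2 and Rgk3, the pore-forming subunits cac, Ca-alpha1D and Ca-alpha1T, the beta subunit Ca-beta and the alpha2delta subunit stj. It was chosen by the measured rise of Rgk2 between the groups of this study, and the other genes joined it as paralogs of Rgk2 or as subunits of the channels that RGK proteins act on. Of the 8 genes, 7 have a row among the 13929 of the deposited table. The annotation gives Ca-beta the identifier FBgn0287724, which is not among the rows, and 63 identifiers of the table are not in that annotation and were given no name. Ca-beta may be counted under one of those, but nothing in the sources used here pairs them, so it was not analysed here.

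Voltage-gated calcium channels open when the membrane depolarizes and let calcium into the cell. Each is built around an alpha1 subunit that forms the pore, and high-voltage-activated channels also carry an intracellular beta subunit and an alpha2delta subunit that help the pore reach the membrane. RGK proteins are Ras-related GTPases, and in vertebrates they bind the beta subunit and reduce calcium current. In photoreceptors and other neurons, calcium that enters at the synaptic terminal triggers the release of transmitter.

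Both groups were male flies aged to Day 30 after eclosion, kept at 25 degrees C and collected at Zeitgeber time 6. All carried UAS-Dcr-2, which strengthens RNAi, in a w[1118] background, together with rh1-GAL4, ry[506] and UAS-GFP-Msp300KASH, which puts GFP on the envelope of the nuclei that were then captured. The siControl flies expressed UAS-mCherry-RNAi, against a fluorescent protein that flies lack, and the siTop3β flies expressed the TRiP.JF01282 construct against Top3β, a topoisomerase of DNA and RNA, both inserted at attP2. The rh1-GAL4 driver limits tag and RNAi to the cells that use the Rhodopsin 1 promoter, the outer photoreceptors. Each RNAi group rests on 1 construct, and each library on nuclei pooled from many males. There were 2 libraries per group, which the labels only number. The methods describe more replicates than this for high-throughput experiments in general, each an independent pool of flies. Here p-values measure the spread between the 2 libraries of each group, which the main test pools in part across genes.

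Library totals ran from 3239201 to 4267208 counts, at which 3 counts correspond to 0.703 to 0.926 CPM, the count scaled to the size of its library. The targeted gene Top3β (FBgn0026015) had 70 and 57 counts in siControl and 57 and 71 in the libraries labelled siTop3β. The log2 fold change was 0.13 with a 95% interval from -0.39 to 0.64. A lower target was thus not seen in this nuclear RNA, and every direction below rests on the labels. By qPCR the paper reports a reduced Top3β transcript under ubiquitous RNAi in larvae, with another driver and at another stage. All 10 photoreceptor markers had counts in all libraries, with a summed level of 58200 to 66700 CPM, against 126 to 168 CPM for 8 markers of other neurons and 175 to 205 CPM for 7 glial markers. The 6 markers of pigment and cone cells summed to 7770 to 12100 CPM, or 327 to 476 CPM without w, which also marks transgenes in these genotypes. The 6 markers of muscle and fat body summed to 909 and 980 CPM in siControl and 599 and 685 CPM in siTop3β, or 24.8 to 55.5 CPM in all libraries without apolpp, a fat body lipoprotein gene that was called lower. For each library, protein-coding genes were taken as otherwise silent if their counts in the remaining libraries did not exceed 3, so each library had its own set. Replicate 1 of the libraries labelled siTop3β stood apart, with a count on 77% of its 4185 such genes. The other libraries had a count on 12.5% to 18.8% of their own sets of 2366 to 2457 genes. Those sets leave out genes above 3 counts in siTop3β replicate 1, so the percentages do not refer to the same genes. Among 7029 genes tested with the quasi-likelihood test of edgeR, 85 (1.21%) passed the Benjamini-Hochberg threshold of 0.05, 27 (0.384%) higher and 58 (0.825%) lower. The 85 became 52 without siControl replicate 1, 131 without siTop3β replicate 1 and 424 without siTop3β replicate 2.

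Per kb of annotated exon, the channel genes were far above the RGK genes in siControl. Ca-alpha1D, the subunit of L-type channels, was at 598 ± 41.7 CPM per kb (SD, n = 2), which placed it 35th from the top of 11322 annotated genes with a count. Next came cac, the pore of the presynaptic channel that drives transmitter release, at 232 ± 5.82, and stj, which helps cac reach the synapse, at 213 ± 19.8 CPM per kb (SD, n = 2 each). The means of cac and stj differed by less than the SD of stj. Ca-alpha1T, the pore of low-voltage-activated T-type channels, was at 8.04 ± 1.7 CPM per kb, and Rgk1, Rgk2 and Rgk3 were at 3.46 ± 0.510, 0.952 ± 0.192 and 0.606 ± 0.0114 CPM per kb (SD, n = 2 each). In the libraries labelled siTop3β the order was the same except for Rgk2, which at 6.21 ± 1.68 CPM per kb lay above Rgk1 (2.39 ± 0.756) and whose mean also exceeded that of Ca-alpha1T (5.14 ± 0.542). In replicate 1 Rgk2 was at 5.03 and Ca-alpha1T at 5.52 CPM per kb, and in replicate 2 they were at 7.40 and 4.75. How the authors assigned reads to exons and introns is not stated, so these levels depend on the length used. Per kb of whole span, Rgk2 was at 3.25 CPM in the libraries labelled siTop3β against 0.764 for Ca-alpha1T and 0.371 for Rgk1.

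**Figure D1:**
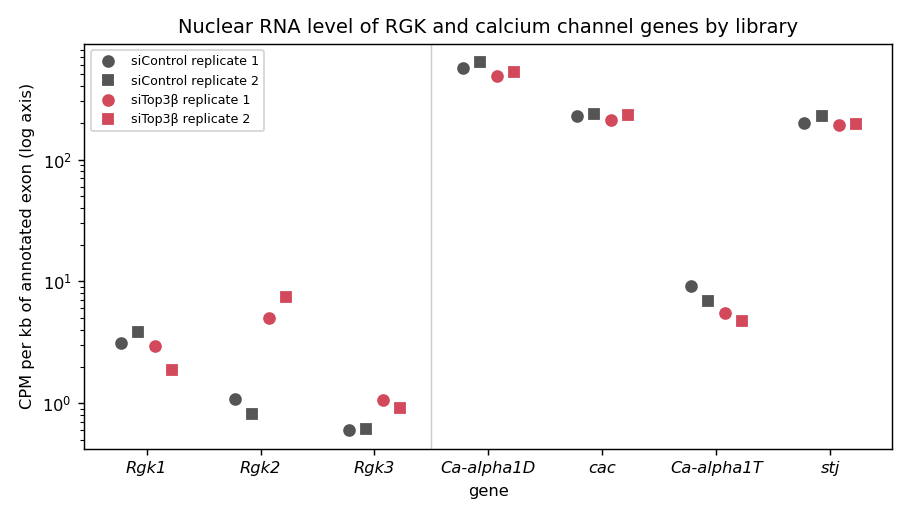
Level of each gene in each library, in CPM per kb of annotated exon on a log axis, with siControl in grey and the libraries labelled siTop3β in red. Rgk2 lies between 0.816 and 1.09 in siControl and at 5.03 and 7.40 in the libraries labelled siTop3β, while the points of cac are interleaved.

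Rgk2 (FBgn0085419) lies on dm6 chromosome 2R from 18539585 to 18548969. It had 23 and 14 counts in siControl replicates 1 and 2, and 85 and 136 counts in replicates 1 and 2 labelled siTop3β. Normalized, these were 5.34 and 4.01 CPM against 24.7 and 36.3 CPM. Both siTop3β libraries were above both siControl libraries. The mean level was 6.52 times that of siControl and the log2 fold change was 2.69, with 3 of the 7029 tested genes above it. No test is given, because this rise chose the gene set. At the density of counts on otherwise silent genes, a gene of the exonic length of Rgk2 would have had 11.6 counts in siTop3β replicate 1 and 0.748 in replicate 2. Without replicate 1 the log2 fold change of Rgk2 was 2.93, and without replicate 2 it was 2.34. A non-coding RNA gene, lncRNA:CR46271, lies inside Rgk2 on the same strand and was not analysed here.

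The rise was not found in Rgk1. This paralog, which in the fly is needed for memory, lies on chromosome 2R from 19311148 to 19356525. It had 94 and 94 counts in siControl and 71 and 49 counts in the libraries labelled siTop3β, or 21.8 and 26.9 CPM against 20.6 and 13.1 CPM. The siTop3β libraries were both below both siControl libraries, with replicate 1 only just so. At the density of otherwise silent genes, the exonic length of Rgk1 would have had 16.7 of its 71 counts in siTop3β replicate 1 and 1.07 of 49 in replicate 2, a part that was not tested. The log2 fold change was -0.53 (SE 0.25, edgeR adjusted p = 0.528), and its 95% interval ran from 48.3% to 99% of siControl. The interval held no rise, and the difference did not pass the adjusted threshold. Over the alternatives tried the log2 fold change ran from -0.89 to -0.28. Genes on the opposite strand, fest and CG34045, overlap Rgk1 and had 0 to 16 counts a library, and without strand their reads cannot be told apart.

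For Rgk3, on chromosome 2R from 21255165 to 21280995, a difference was not detectable at this depth. It had 12 and 10 counts in siControl and 17 and 16 counts in the libraries labelled siTop3β, or 2.79 and 2.86 CPM against 4.93 and 4.27 CPM. The groups did not overlap after normalization, but the Poisson intervals of the counts did, from 4.80 to 21.0 in siControl and from 9.15 to 27.2 in siTop3β. The log2 fold change was 0.70 (SE 0.57, edgeR adjusted p = 0.811), with a 95% interval from 0.723 to 3.64 times siControl. That interval holds both no change and a rise over 3-fold. At the density of otherwise silent genes, its exonic length would have had 11.0 counts in siTop3β replicate 1 and 0.710 in replicate 2. Its opposite-strand overlaps, CG30393 and CG30391, had 6 and 3 counts in that replicate and 0 in the other libraries. The part of that background in the level of Rgk3 was not tested, and without replicate 1 the log2 fold change was 0.59.

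Within a library, shares of counts do not depend on scaling between libraries. Rgk2 made up 17.8% of the counts on the RGK genes in siControl replicate 1 (95% Wilson interval 12.2 to 25.3) and 11.9% in replicate 2 (7.20 to 18.9). In the libraries labelled siTop3β its share was 49.1% (41.8 to 56.5) and 67.7% (60.9 to 73.7). Rgk1 went from 72.9% and 79.7% to 41.0% and 24.4%, so the gene with the most RGK counts changed from Rgk1 to Rgk2. In siTop3β replicate 1 that lead was 85 against 71 counts, with overlapping Poisson intervals (67.9 to 105 and 55.5 to 89.6). The share of Rgk3 stayed between 7.96% and 9.83%. The summed level of the RGK genes was 30.0 and 33.8 CPM in siControl and 50.2 and 53.7 CPM in siTop3β. These shares describe the rise of Rgk2 again and are no further support for it. Intervals cover counting error only.

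**Figure D2:**
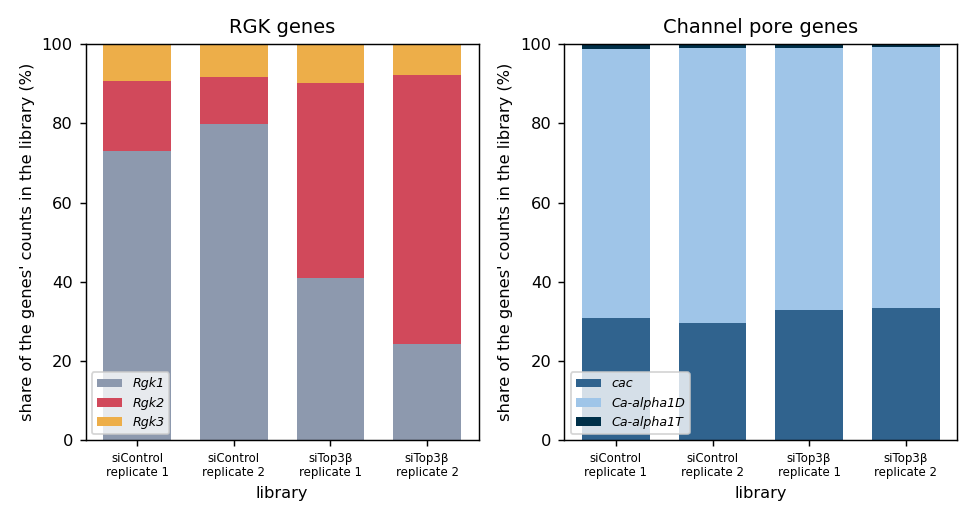
Shares of counts within each library, in percent, for the RGK genes (left) and the channel pore genes (right), 1 stacked bar per library. Rgk2 takes 11.9% to 17.8% of RGK counts in siControl and 49.1% to 67.7% in the libraries labelled siTop3β, while Ca-alpha1D keeps 65.8% to 69.4% of the pore counts.

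Of the 4 channel subunits tested, 0 were called higher, where 0.384% of all tested genes were. With so few genes, 0 calls say little about the subunits as a group. The pore gene cac (FBgn0263111) lies on chromosome X from 11931280 to 11985087. There were 11700 and 9837 counts in siControl against 8685 and 10453 counts in siTop3β. In CPM this was 2717 and 2815 against 2521 and 2791, and the groups overlapped. Its log2 fold change was -0.06 (SE 0.15, edgeR adjusted p = 0.972), with a 95% interval from 77.4% to 119% of siControl. Without siTop3β replicate 1 the sign turned, at 0.014.

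Ca-alpha1D (FBgn0001991) lies on chromosome 2L from 16165831 to 16190540. Counts were 25679 and 22996 counts in siControl and 17544 and 20550 in siTop3β, or 5963 and 6581 CPM against 5092 and 5487 CPM. Both siTop3β libraries were below both siControl libraries, and the log2 fold change was -0.25 (SE 0.16, edgeR adjusted p = 0.740, 95% interval 67.2% to 106% of siControl). This gene alone took 0.518% to 0.636% of each library. Its ratio to cac was 2.19 and 2.34 in siControl and 2.02 and 1.97 in siTop3β. An exact two-sided permutation test of that ratio gave p = 0.333, the smallest that 2 against 2 libraries allow. A non-coding RNA gene, asRNA:CR43806, overlaps Ca-alpha1D on the opposite strand and was not analysed here.

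The alpha2delta gene stj (FBgn0261041) lies on chromosome 2R from 13805794 to 13819571. Counts were 5383 and 4981 counts in siControl and 4189 and 4618 in siTop3β. Its levels were 1250 and 1425 CPM against 1216 and 1233 CPM. The groups did not overlap, but the gap was smaller than the distance between the siControl libraries. The log2 fold change was -0.13 (SE 0.15, edgeR adjusted p = 0.885, 95% interval 74.5% to 112% of siControl).

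Ca-alpha1T (FBgn0264386), on chromosome X from 6104085 to 6192483, was the exception, and it fell. It had 523 and 314 counts in siControl and 250 and 234 counts in the libraries labelled siTop3β. Normalized, these were 121 and 89.9 CPM against 72.6 and 62.5 CPM, so both siTop3β libraries were below both siControl libraries, and siControl replicate 1 was well above the rest. The log2 fold change was -0.65 (SE 0.16, edgeR adjusted p = 0.0369), with a 95% interval from 50.7% to 80.1% of siControl. The call was not stable. The edgeR adjusted p was 0.064 with upper quartile normalization, 0.215 with total counts only and 0.0974 without robust moderation. The DESeq2 Wald test gave an adjusted p of 0.249. From edgeR it was 0.026 with RLE size factors, 0.0479 with no filter and 0.00973 with at least 10 counts in every library. With replicate numbers crossed as a block, a setting chosen after seeing the data, it was 0.000476. Without siControl replicate 1 the log2 fold change was -0.44, with an edgeR adjusted p = 0.911. Ca-alpha1T is also known from neurons other than photoreceptors. The markers of other neurons summed to 168 and 158 CPM in siControl and 161 and 126 CPM in siTop3β, and their part in the fall was not tested. Those of inner photoreceptors summed to 379 and 361 against 264 and 252 CPM, a difference carried by pros, a regulator also used in other cells, which was called lower. Without pros they summed to 87.5 and 97.6 against 83.3 and 87.6 CPM. Fewer cells of a type and less RNA per cell cannot be told apart in such pooled libraries. A transposable element, Quasimodo{}68, overlaps Ca-alpha1T on the same strand and was not analysed here.

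**Figure D3:**
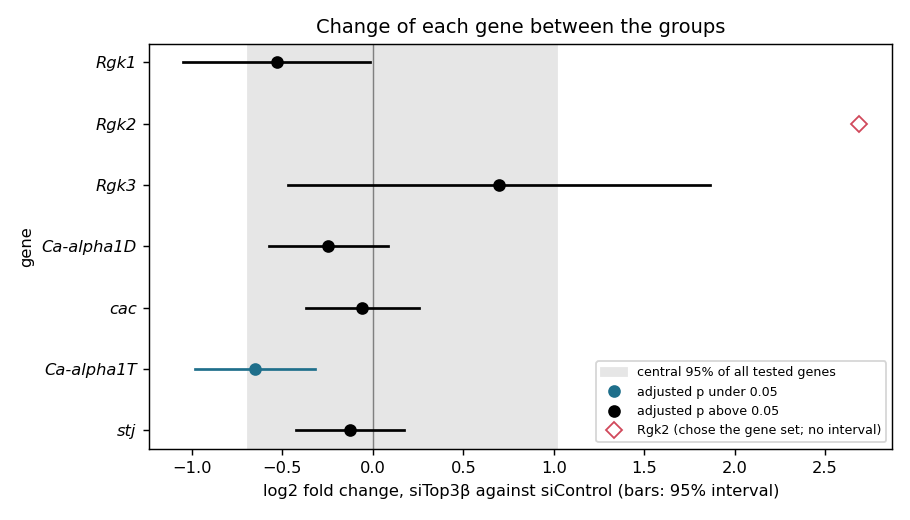
Log2 fold change of each gene between the libraries labelled siTop3β and siControl, with 95% intervals from edgeR; the grey band holds the central 95% of all tested genes, from -0.69 to 1.02. Rgk2 at 2.69, drawn without an interval, lies outside the band, the intervals of Ca-alpha1T and Rgk1 lie wholly below 0, and those of Rgk3, cac, Ca-alpha1D and stj span 0.

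Apart from Rgk2, 6 genes were tested, of which 1 was called lower, 0 were called higher and 5 were not called, with a median log2 fold change of -0.19. Across all tested genes 1.21% were called and the median was 0.02. Of the 6, 5 had groups that did not overlap, against 38.5% of all tested genes. The gene called, Ca-alpha1T, also has the longest span at 88.4 kb. The spans were 53.8 kb for cac, 45.4 kb for Rgk1, 25.8 kb for Rgk3, 24.7 kb for Ca-alpha1D, 13.8 kb for stj and 9.39 kb for Rgk2, the shortest. Over these few genes no relation to length was tested.

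None of the tested neighbours of Rgk2 on the chromosome was called. Of 7 genes with a row within 50 kb of it, 3 were tested, with log2 fold changes from -0.39 to 0.18. The closest genes with a row, at 0.169 kb, had 0 counts in every library and were not tested. The nearest tested neighbour, GEFmeso, at 5.15 kb, had 131 and 129 counts in siControl and 134 and 140 in siTop3β. Near Ca-alpha1T, 13 of 19 genes were tested and 0 were called, with log2 fold changes from -0.44 to 0.98. Across all tested genes 1.21% were called, so 0 calls among so few genes say little about either location.

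Over the 4 libraries, the tested gene whose pattern lay nearest to that of Rgk2 was CG10936, with a root mean square distance of 0.279 in centred log2 CPM. It had 28 and 19 counts in siControl and 83 and 108 in the libraries labelled siTop3β. Strica, which encodes a caspase, followed at 0.345 with 12 and 14 against 87 and 106 counts. CG34049 (0.353), CG14662 (0.368) and CG17242 (0.418) completed the 5 nearest, all with at most 8 counts in either siControl library, and CG34049 had 1 and 1. With 4 libraries in 2 groups, this likeness says little beyond a rise of similar size.

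Beyond these genes, 54 others, of channel subunits, calcium signalling and the Ras family, were followed in 7 lists, and 52 were tested. Of the 52, 1 was called higher and 1 lower, and the median log2 fold change was -0.08, beside 1.21% called and a median of 0.02 over all tested genes. The 2 called became 5 without siTop3β replicate 2, 1 without siControl replicate 1 and 1 with the DESeq2 Wald test.

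The gene that rose was RyR, the ryanodine receptor, which releases calcium from the endoplasmic reticulum. It had 116 and 109 counts in siControl and 197 and 230 counts in the libraries labelled siTop3β, and its mean went from 29.1 ± 3.01 to 59.3 ± 3.00 CPM (n = 2 each, SD). Both siTop3β libraries were well above both siControl libraries. The log2 fold change was 1.03 (SE 0.18, edgeR adjusted p = 0.00116). It was not called by DESeq2 (adjusted p = 0.138) or without siControl replicate 1 (edgeR adjusted p = 0.111, log2 fold change 0.90). At the density of otherwise silent genes its exonic length would have had 38.9 counts in siTop3β replicate 1, and without that replicate the log2 fold change was 1.08. Of the other 5 tested channels of calcium entry and release, none was called, beside 1.21% of all tested genes. Itpr, the other release channel of the endoplasmic reticulum, was at 201 ± 7.31 and 198 ± 22.5 CPM, and trp and trpl, the channels of the light response, had log2 fold changes of 0.23 and -0.29 (edgeR adjusted p = 0.752 and 0.668). Trpgamma was not tested, with 23 counts in siTop3β replicate 1 and at most 4 elsewhere.

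The gene that fell was Rgl, listed with the Ras-family GTPases although it is an exchange factor for one of them, Ral. Its level went from 163 ± 14.5 to 91.7 ± 0.483 CPM (n = 2 each, SD). This was -0.83 on the log2 scale (SE 0.14, edgeR adjusted p = 0.000676), and it was called under all 13 alternatives. The 8 GTPases of that list, Rala, Ras85D and Rap1 among them, had log2 fold changes from -0.17 to 0.21. None was called, beside 1.21% of all tested genes.

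**Figure D4:**
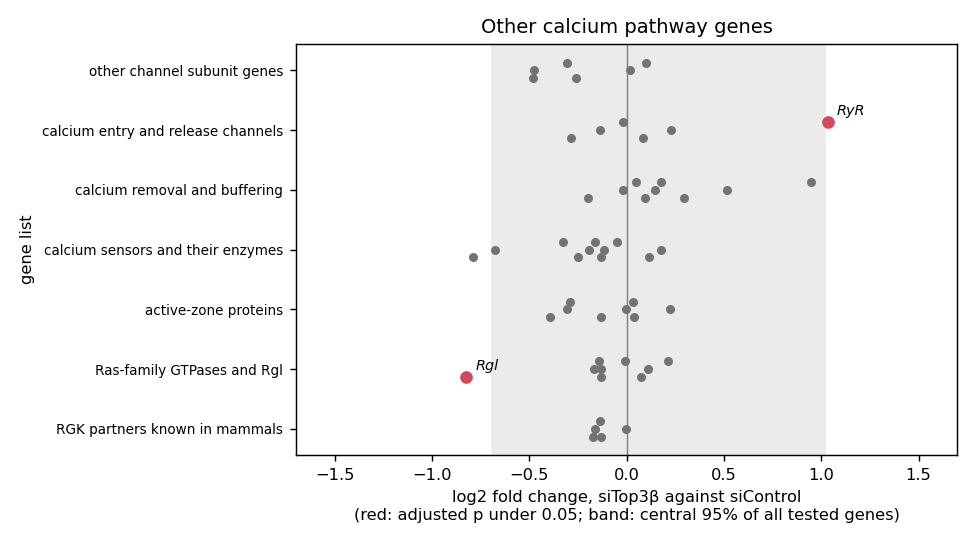
Log2 fold changes of the tested genes in each of 7 lists, 1 point per gene, with called genes in red and the central 95% of all tested genes as a grey band. RyR at 1.03 and Rgl at -0.83 are the points past the adjusted threshold.

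In the remaining lists no gene was called in either direction, where 1.21% of all tested genes were. In lists this short, 0 calls say little about these pathways. Among other channel subunits, 6 genes were tested, and the highest were stol, a second alpha2delta gene, at 555 ± 5.71 and 463 ± 10.3 CPM, and the sodium channel para at 167 ± 34.6 and 120 ± 3.17 CPM (SD, n = 2 each). Their log2 fold changes were -0.26 and -0.48 (edgeR adjusted p = 0.591 and 0.132). Among 9 genes of calcium removal and buffering, the sodium-calcium exchanger Calx and the plasma membrane pump PMCA had log2 fold changes of 0.09 and -0.20, and 7 of the 9 were above 0. Of 11 tested calcium sensors and their enzymes, 9 were below 0, with Cam (calmodulin) at -0.16 and CaMKI at -0.05. Across all 7029 tested genes 3758 were above 0, and the directions within these lists were not tested. The active-zone list had 8 genes, of which unc-13, a priming factor, was at -0.13 and brp, the scaffold that clusters cac, at 0.04. The 5 partners of RGK proteins known from mammals lay between -0.18 and -0.01, with Cam and CaMKII, at -0.13, the most abundant.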

How the data were processed

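Nuclear RNA-seq libraries from photoreceptors of male flies were analysed, 2 per group. Per the labels and the methods, the authors used Trimmomatic for trimming, STAR for alignment to dm6, then SAMtools and DESeq2, and deposited raw counts per gene, without normalization. Libraries were made from 10 ng of RNA. The counting tool, annotation and use of strand or introns are not given in the sources used here.

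Counts were normalized by TMM and tested with edgeR 4.0.16 in R 4.3.3. Settings were the expression filter, a robust quasi-likelihood test, no replicate block, and Benjamini-Hochberg adjustment over all 7029 genes with threshold 0.05. The procedure was also tried on simulated counts with the same variability for all genes. These lacked the background of siTop3β replicate 1, so that trial does not check the calls on these libraries. Standard errors came from the test statistic. All 7 genes passed the filter's 2.64 CPM in every library. DESeq2 1.42.0 gave an alternative. Names, spans and exons came from the Ensembl release 115 annotation (dm6 coordinates), which covers 13866 of 13929 identifiers. The nearest genes to Rgk2 used log2 CPM with a prior count of 2. Named are the genes of the set, Top3β, called genes of the lists, otherwise each list's most abundant pair, and the 5 nearest to Rgk2. Itpr, trp, trpl, Trpgamma, Rala, Ras85D, Rap1, fest, CG34045, CG30393, CG30391, pros, w, apolpp, lncRNA:CR46271 and GEFmeso were named after their values were seen. The overlaps of Ca-alpha1D and Ca-alpha1T were also named after values were seen. Members and lists were chosen with earlier results of these data known. No sequences were used here.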

Additional observations from a re-analysis of the deposited data

How the results depend on the processing

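Normalization, filter, test, moderation, a replicate block and single libraries were varied. The 85 genes called became 138 (44 higher, 94 lower) with at least 10 counts in every library and 51 (8 higher) with the DESeq2 Wald test. The genes called higher were 42 with no filter, 17 with total counts only and 17 with the replicate number as a block. With single libraries left out, where the lone library of a group is assumed to vary like the others, the calls ran from 52 to 424, those higher from 11 to 253 and those lower from 40 to 171. Same-numbered libraries had a correlation of -0.12 in their deviations, so the numbers were not taken as pairs. With them crossed as a block, chosen after seeing the data, 211 genes were called, 80 higher and 131 lower, 4 of them in the calcium lists.

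Apart from Rgk2, the genes called in the set numbered 0 with upper quartile normalization, total counts only, the DESeq2 Wald test, no robust moderation and the replicate block (adjusted p = 0.101 from edgeR for Ca-alpha1T), and 0 to 1 with single libraries left out. Ca-alpha1T kept its sign under all 13 alternatives and was called under 7, the crossed block among them. The log2 fold change of cac ran from -0.17 without siTop3β replicate 2 to 0.014 without siTop3β replicate 1. Rgk1, Rgk3, Ca-alpha1D and stj kept their signs and stayed uncalled. For Rgk3 the DESeq2 Wald test gave no adjusted p, as it gave one to only 4225 of 13144 genes. Rgk2 ran from 2.34 to 2.93. Of the calcium lists, 1 gene was called by DESeq2, and 1 to 5 with single libraries left out. Per kb of whole span, stj exceeded cac in siControl, at 97.1 against 51.4 CPM. With a prior count of 0.5, 4 of the 5 genes nearest to Rgk2 were shared. The causes were not tested. Depth limits Rgk3, with 10 to 17 counts a library.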
